A study of Homo sapiens with 24 samples.

Results

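The genes described here are 10 genes of the Notch pathway: the ligands JAG1, JAG2 and DLL1, the receptors NOTCH1, NOTCH2 and NOTCH3, the receptor-modifying enzyme LFNG, and the targets HES1, HEY1 and NRARP. They were taken from a given list of symbols, matched through GENCODE v29 to the Ensembl identifiers of the count tables, and all 10 were found among the 57500 genes counted. RNA-Seq had been performed on multicellular spheroids of FaDu and SAS, established human cell lines of head and neck squamous cell carcinoma (HNSCC), to ask how hyperthermia (HT) and radiotherapy (RT) alter gene expression. Spheroids were treated after 4 days in culture, at a mean diameter of about 400 µm, and RNA was taken 0.5 h after treatment from 3 independent experiments per group. The 4 FaDu groups were control spheroids, RT with a single dose of 7 Gy, HT at 42.5 °C for 60 min, and HT followed directly by RT (HT + RT) at these same settings. The 4 SAS groups were control, RT with 10 Gy, HT at 42.5 °C for 60 min, and HT + RT, so that the radiation dose differed between the lines. Total counts ranged from 15203484 to 29452514 over the 24 libraries.

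Notch receptors are activated by ligands of the Jagged and Delta-like families on neighboring cells. Proteases then release the intracellular domain of the receptor, which joins the DNA-binding protein RBPJ in the nucleus and switches on target genes, while Fringe enzymes such as LFNG add sugars to the receptor that change which ligands it answers to. In squamous epithelia the pathway is known for its part in differentiation, and NOTCH1 is recurrently mutated in HNSCC.

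Promoter windows from 250 bases before to 50 bases after the annotated start were available from RefSeq (GRCh38.p14) for 8 of the 10 genes, all but DLL1 and HEY1. They are shown for LFNG, HES1 and NRARP, the genes of the list with a window that were altered by treatment. LFNG had windows for 2 annotated starts, at chr7:2512279-2512578 and chr7:2517613-2517912 (plus strand), HES1 had 1 at chr3:194135898-194136197 (plus strand), and NRARP had 1 at chr9:137302222-137302521 (minus strand). The sequences run 5′ to 3′ along the gene, and capitals mark matches to the motifs searched.
LFNG first start: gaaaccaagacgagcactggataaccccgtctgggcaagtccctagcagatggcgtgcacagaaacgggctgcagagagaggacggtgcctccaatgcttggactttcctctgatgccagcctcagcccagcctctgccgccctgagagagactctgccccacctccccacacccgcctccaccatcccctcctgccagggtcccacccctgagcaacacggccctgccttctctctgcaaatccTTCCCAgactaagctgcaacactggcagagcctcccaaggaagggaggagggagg
LFNG second start: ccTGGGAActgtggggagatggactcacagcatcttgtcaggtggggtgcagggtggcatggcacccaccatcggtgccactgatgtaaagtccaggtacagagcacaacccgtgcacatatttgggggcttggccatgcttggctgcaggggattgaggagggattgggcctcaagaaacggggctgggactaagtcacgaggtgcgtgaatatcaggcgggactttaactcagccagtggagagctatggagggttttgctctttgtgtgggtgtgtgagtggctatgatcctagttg
HES1: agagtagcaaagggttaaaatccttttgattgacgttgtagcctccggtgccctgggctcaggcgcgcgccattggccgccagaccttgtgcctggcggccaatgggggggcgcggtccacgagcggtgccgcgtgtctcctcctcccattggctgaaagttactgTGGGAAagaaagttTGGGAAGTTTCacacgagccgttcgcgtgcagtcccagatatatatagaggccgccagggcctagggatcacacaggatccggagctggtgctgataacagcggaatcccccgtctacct
NRARP: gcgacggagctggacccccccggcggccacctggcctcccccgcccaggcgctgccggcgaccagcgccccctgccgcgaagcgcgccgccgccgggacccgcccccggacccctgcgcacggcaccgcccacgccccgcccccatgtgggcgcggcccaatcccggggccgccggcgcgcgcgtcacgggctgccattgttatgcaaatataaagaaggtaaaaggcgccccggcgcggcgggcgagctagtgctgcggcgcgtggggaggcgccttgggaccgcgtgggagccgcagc
The motifs searched on both strands were the RBPJ core TGGGAA, the heat shock element pair GAANNTTC or TTCNNGAA, the E box CACGTG, the AP-1 motif TGACTCA, the CRE motif TGACGTCA and the CArG box. The HES1 window held the RBPJ core 2 times on the gene's strand. Each LFNG window held it 1 time, on the opposite strand (TTCCCA) at the first start and on the gene's strand at the second. This core was present in 24% of all 35116 promoter windows of the same length. The HES1 window also held 1 match to GAANNTTC (GAAGTTTC), whose first 3 letters are the last 3 of the second RBPJ core, and the heat shock element pair was present in 13.5% of all windows. The NRARP window held none of the 6 motifs. The E box was present in 7.26%, the AP-1 motif in 4.95%, the CRE motif in 1.85% and the CArG box in 1.29% of all windows, and in none of the 4 shown.

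Levels are given as CPM, read counts scaled to the size of each library with TMM, and as CPM per kilobase (kb) of exon where genes are compared with each other. A gene passed at a Benjamini-Hochberg adjusted p under 0.05 in edgeR's quasi-likelihood test over all genes, and was altered if its absolute log2 fold change was also over 1. The labels of heated spheroids were checked with the heat shock gene HSPA1A, which was between 66.6 and 187 CPM in the 12 unheated libraries and between 2482 and 4395 CPM in the 12 heated ones. All 8 squamous markers were over 1 CPM, with a summed level of 10048 ± 135 CPM in FaDu and 4149 ± 163 CPM in SAS controls (SD, n = 3 each) and KRT17 as the most abundant. Their sum was 9726 to 10235 CPM in the unheated and 11008 to 11644 CPM in the heated FaDu libraries, without overlap. In SAS it was 3939 ± 192 CPM after RT, 4284 ± 256 after HT and 4092 ± 43.9 after HT + RT (SD, n = 3 each). KRT17 alone had a mean of 4312 CPM in FaDu controls, 4456 after RT, 5438 after HT and 5451 after HT + RT. In SAS its mean was 1492, 1366, 1710 and 1618 CPM in the same order. The direction of each marker is not shown by the sum. Of the 4 leukocyte markers, PTPRC and CD3E were under 1 CPM in all groups, and the summed level, most of it CD14, was 9.93 ± 1.22 CPM in SAS controls, 9.90 ± 0.958 after RT, 7.29 ± 0.664 after HT and 9.54 ± 0.625 after HT + RT (SD, n = 3 each). In FaDu it was 7.24 ± 0.465, 7.73 ± 0.614, 7.66 ± 1.38 and 7.26 ± 1.07 CPM in the same order (SD, n = 3 each). Of the 4 endothelial markers KDR was under 1 CPM in all groups, and the summed level, most of it CDH5, was 16.44 ± 5.02, 19.0 ± 5.42, 16.35 ± 6.35 and 17.6 ± 5.78 CPM in SAS control, RT, HT and HT + RT spheroids (SD, n = 3 each). In FaDu it was 7.66 to 8.71 CPM in control, 6.625 to 8.16 in RT, 6.44 to 7.16 in HT and 6.17 to 6.87 in HT + RT libraries, so that heated libraries lay below the controls and overlapped those after RT. Of the 5 fibroblast markers all but COL1A1 were under 1 CPM in all groups. COL1A1 alone had a mean of 1.33 CPM in SAS controls, 1.42 after RT, 23.6 after HT and 24.1 after HT + RT. The summed level of the fibroblast markers in SAS spheroids was 1.71 ± 0.51 CPM in controls, 1.90 ± 0.22 after RT, 24.6 ± 7.1 after HT and 24.9 ± 0.39 after HT + RT (SD, n = 3 each), and in FaDu spheroids 42.0 ± 5.7, 42.1 ± 7.1, 54.2 ± 8.5 and 56.0 ± 10.4 CPM. The part of these markers in the results on heated spheroids was not tested. The study describes these spheroids as mono-cultures, without added stromal or immune cells. In bulk RNA, a change in all cells and a change in part of them cannot be told apart.

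FaDu replicate 1 stood apart from replicates 2 and 3. NOTCH1, NOTCH3, JAG1 and NRARP were lowest in replicate 1 in each of the 4 FaDu groups, by a median log2 ratio of -0.52, -0.56, -0.42 and -0.49 against the other replicates. Of the other members, NOTCH2 and HES1 were lowest in replicate 1 in 3 FaDu groups, and JAG2, DLL1 and LFNG in 2. HEY1 was lowest there in 1 FaDu group and highest in 3. In SAS spheroids, replicate 1 was the lowest for JAG1 in 4 groups, by a median of -0.14, for NOTCH1 in 2, and for NOTCH3 and NRARP in 0. Results on FaDu spheroids are therefore also given without all 4 libraries of FaDu replicate 1 wherever a call differs. That alternative was chosen after the data had been seen.

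Per exon length, NRARP, a target that acts back on the pathway as an inhibitor, had the highest level of the 10 genes in FaDu controls, at 67.1 ± 12.2 CPM per kb. It was followed by JAG2 at 35.2 ± 3.66, HES1 at 28.4 ± 3.44, NOTCH3 at 17.8 ± 3.93, NOTCH2 at 13.9 ± 1.62, DLL1 at 13.4 ± 1.70, NOTCH1 at 11.8 ± 2.96, LFNG at 4.37 ± 1.06 and JAG1 at 4.27 ± 0.653 CPM per kb (SD, n = 3 each). The libraries of JAG2 and HES1, of NOTCH3 and NOTCH2, of NOTCH2 and DLL1, of DLL1 and NOTCH1, and of LFNG and JAG1 overlapped, and those of the other neighbors in this order did not. HEY1 was lowest, at 0.0750 ± 0.00879 CPM per kb (SD, n = 3). In SAS controls JAG2 was highest at 56.4 ± 4.97, followed by NRARP at 30.1 ± 2.10, HES1 at 27.3 ± 3.21, DLL1 at 16.9 ± 1.30, LFNG at 14.9 ± 3.42, NOTCH3 at 11.3 ± 1.20, NOTCH1 at 10.9 ± 1.45, NOTCH2 at 8.02 ± 1.06, JAG1 at 6.92 ± 0.267 and HEY1 at 0.187 ± 0.0245 CPM per kb (SD, n = 3 each). Here the libraries of NRARP and HES1, of DLL1 and LFNG, of NOTCH3 and NOTCH1, and of NOTCH2 and JAG1 overlapped, and those of the other neighbors did not.

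**Figure D1:**
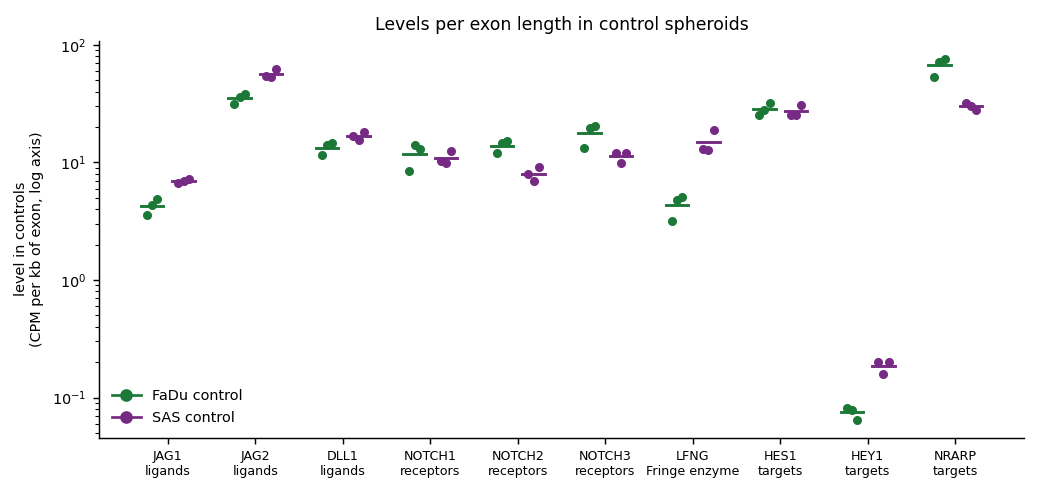
Levels of the 10 genes in CPM per kb of exon (log axis) in the 3 libraries of FaDu control and SAS control spheroids, with a bar at each mean. HEY1 lies below the other genes in both lines, LFNG is higher in SAS and NRARP is higher in FaDu.

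The comparison of controls asked where the lines differed before treatment. NRARP was 94.2, 127 and 135 CPM in the FaDu control libraries and 56.9, 53.4 and 49.5 CPM in those of SAS. LFNG was 10.8, 16.5 and 17.5 CPM in FaDu and 44.5, 43.8 and 64.4 CPM in SAS controls. Neither gene's libraries overlapped between the lines, with NRARP higher in FaDu and LFNG higher in SAS. The log2 fold change, FaDu over SAS, was 1.19 ± 0.12 (SE, edgeR adjusted p = 5e-06) for NRARP. For LFNG it was -1.73 ± 0.19 (SE, edgeR adjusted p = 9.2e-06). NOTCH2 (log2 fold change 0.82) and NOTCH3 (0.68) were also higher in FaDu, and all 3 ligands were lower, JAG1 by -0.67, JAG2 by -0.65 and DLL1 by -0.30. In all, 3 of 9 tested genes were higher and 4 were lower, where 38.6% and 36.4% of all 15810 genes tested were, and 2 were altered, against 38.1% of all genes. Their median log2 fold change was 0.09, and that of all genes was 0.029. With library totals in place of TMM, the median of all genes moved to 0.2, and DLL1 no longer passed (-0.13, edgeR adjusted p = 0.26) while HES1 did (0.26, edgeR adjusted p = 0.049, against 0.09 and 0.45 with TMM). NOTCH1 was 87.8, 145 and 136 CPM in FaDu and 106, 102 and 130.1 CPM in SAS controls. Its libraries overlapped and it did not pass, at 0.15 ± 0.16 (SE, edgeR adjusted p = 0.41), but it did without FaDu replicate 1 (0.35, edgeR adjusted p = 0.0038).

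Heat was compared with its absence in 2 sets of libraries per line, HT against control and HT + RT against RT, which share no library. Residuals of equal replicate numbers were correlated across the sets, between control and RT and between HT and HT + RT. The correlations were 0.185 to 0.571 in FaDu and 0.165 to 0.297 in SAS, so that the 2 sets are not independent. In FaDu spheroids after HT, 2 of 9 tested genes were higher (HES1, NRARP) and 2 lower (JAG2, LFNG), where 7.95% and 9.69% of all 15879 genes were. HES1, NRARP and LFNG, 3 of 9, were altered, against 4.97% of all genes. After HT + RT against RT in FaDu, 2 of 10 were higher, 1 was lower and 3 were altered, against 9.37%, 9.9% and 5.39% of all 15905 genes, and the altered genes were again HES1, NRARP and LFNG. In SAS spheroids after HT, 4 of 10 were higher (JAG1, DLL1, HES1, NRARP) and 3 lower (JAG2, NOTCH3, LFNG), against 12.2% and 11.4% of all 15000 genes, and 1, LFNG, was altered, against 6.03%. In SAS spheroids after HT + RT against RT, 5 of 10 were higher (JAG1, DLL1, NOTCH1, HEY1, NRARP), 4 were lower (JAG2, NOTCH2, NOTCH3, LFNG) and 2 were altered (LFNG, HEY1), against 14.1%, 13.8% and 6.6% of all 15125 genes. The median log2 fold change of the tested genes of the list was -0.11, 0.04, 0.22 and 0.34 in these 4 comparisons, and that of all genes was 0.0061, 0.0083, 0.0025 and 0.0034. HT + RT was also compared with control, which shares the control libraries with HT against control. In FaDu, 3 of 10 were higher (HES1, HEY1, NRARP), 2 lower (JAG2, LFNG) and 4 altered, against 9.52%, 9.78% and 5.72% of all genes. HEY1 met the filter on low counts here through the HT + RT libraries alone, so that it had to differ, and of the other 9 genes 2 were higher, 2 lower and 3 altered. In SAS, 6 of 10 were higher (JAG1, DLL1, NOTCH1, HES1, HEY1, NRARP), 2 lower (NOTCH3, LFNG) and 2 altered, against 13.6%, 11.5% and 6.36%. Where replicate numbers paired, the counts were also taken with the number as a block. In FaDu after HT, 2 of the 9 tested genes were higher, 3 lower and 3 altered, against 15.6%, 17.1% and 5.84% of all genes. For HT + RT against RT they were 2, 2 and 3 in FaDu, against 15.2%, 15.8% and 5.91%, and 6, 4 and 2 in SAS, against 19%, 19.9% and 6.88%. For HT + RT against control they were 3, 2 and 4 in FaDu, against 16.5%, 16.4% and 6.4%, and 6, 4 and 2 in SAS, against 18.1%, 17.3% and 6.65%. The share of higher genes among all genes that passed moved with the scaling. With library totals it was 29.6% in place of 45.1% after HT in FaDu, 30.3% in place of 48.6% after HT + RT against RT in FaDu, 34.2% in place of 51.5% after HT in SAS and 34.9% in place of 50.5% after HT + RT against RT in SAS. For HT + RT against control it was 31.4% in place of 49.3% in FaDu and 35.8% in place of 54.3% in SAS.

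**Figure D2:**
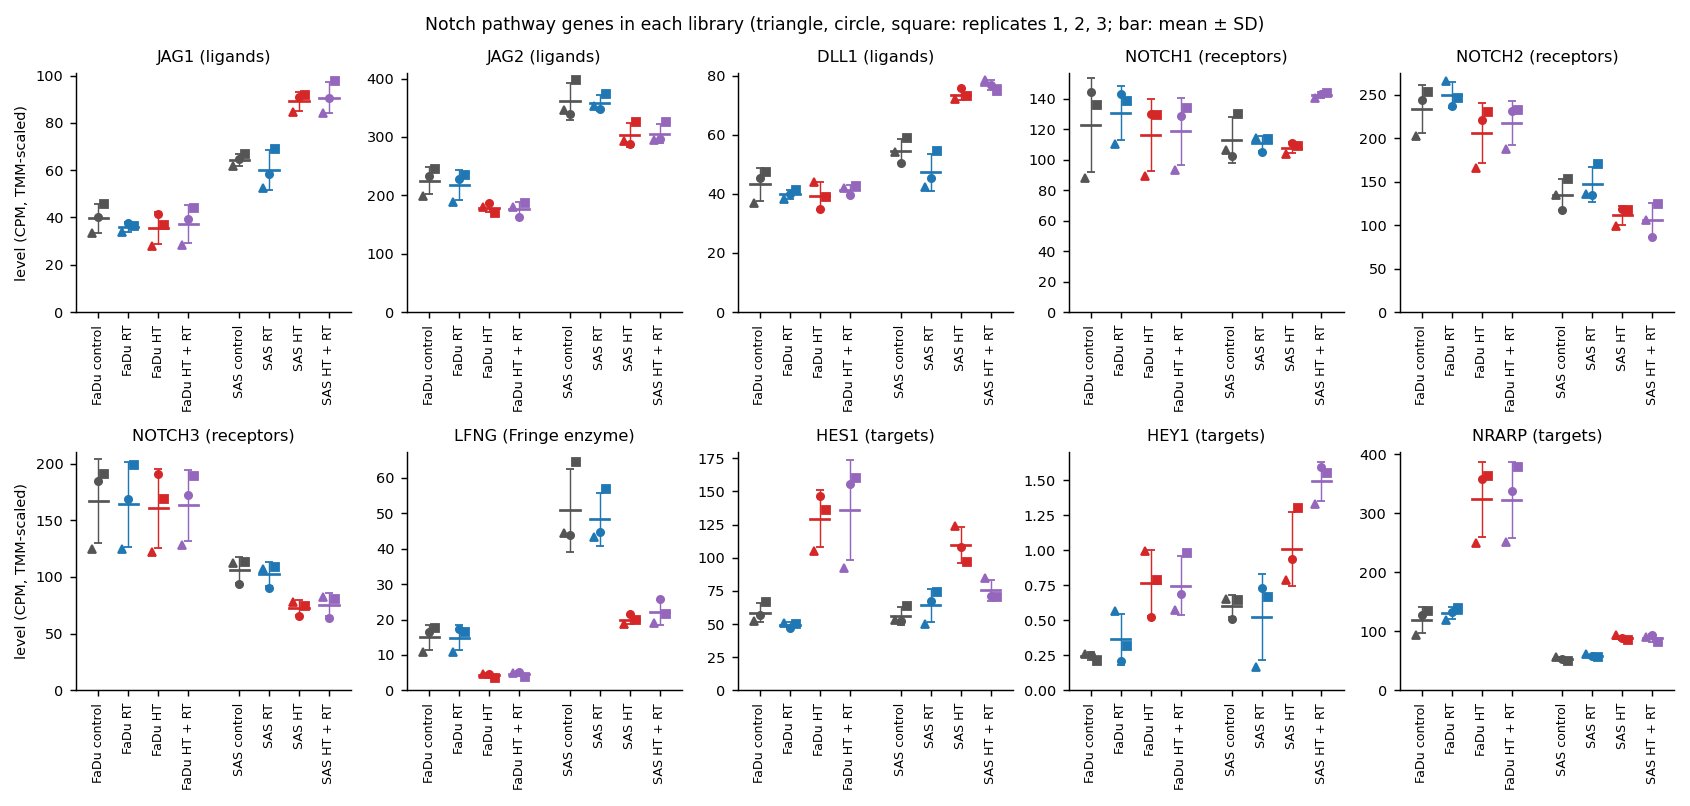
Level of each of the 10 genes in CPM in every library of the 8 groups, with replicates 1 to 3 as triangle, circle and square and bars for mean ± SD (n = 3). LFNG is lower and NRARP higher in every heated group of both lines, and JAG1 and DLL1 are higher in the heated groups of SAS.

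Among the ligands, JAG1 and DLL1 rose with heat in SAS spheroids. JAG1 was 61.7, 64.7 and 66.7 CPM in SAS controls, 52.6, 58.2 and 69.1 after RT, 84.5, 90.9 and 92.0 after HT, and 84.2, 90.4 and 97.5 with HT + RT. DLL1 was 54.3, 50.5 and 58.8 CPM in SAS controls, 42.3, 45.3 and 54.4 after RT, 72.0, 75.7 and 73.2 after HT, and 78.6, 76.9 and 75.0 with HT + RT. All 6 heated SAS libraries lay above all 6 unheated ones for both ligands. JAG1 rose by a log2 fold change of 0.50 ± 0.07 (SE, edgeR adjusted p = 0.00018) after HT and 0.64 ± 0.09 (SE, edgeR adjusted p = 0.00034) after HT + RT against RT. DLL1 rose by 0.47 ± 0.07 (SE, edgeR adjusted p = 0.00064) and 0.74 ± 0.08 (SE, edgeR adjusted p = 6.2e-05) in the same comparisons. In FaDu, JAG1 was 33.4, 40.1 and 45.6 CPM in controls, 33.8, 37.8 and 36.4 after RT, 28.1, 41.4 and 36.6 after HT, and 28.3, 39.4 and 44.1 with HT + RT. DLL1 was 37.0, 45.2 and 47.4 CPM in FaDu controls, 38.1, 40.1 and 41.2 after RT, 44.1, 34.9 and 39.0 after HT, and 42.1, 39.5 and 42.7 with HT + RT. Heated and unheated FaDu libraries overlapped for both. Neither passed, with log2 fold changes after HT of -0.14 (95% CI -0.50 to 0.21) for JAG1 and -0.11 (95% CI -0.37 to 0.15) for DLL1. Between HT + RT and RT they were 0.07 (95% CI -0.26 to 0.40) and 0.07 (95% CI -0.08 to 0.22). Without FaDu replicate 1, a choice made after seeing the data, DLL1 passed after HT in FaDu (-0.29, edgeR adjusted p = 0.01) but not for HT + RT against RT (0.03, edgeR adjusted p = 0.79). DLL1 overlaps FAM120B, a gene on the opposite strand, outside of exons. The strand setting of the counting was not given in the sources used here, so that any reads of FAM120B counted for DLL1 cannot be told apart. Over all libraries, 12511 counts were given to FAM120B and 23786 to DLL1.

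JAG2, the ligand with the highest level per exon length in both lines, was lower with heat in both. It was 199, 232 and 244 CPM in FaDu controls, 188, 229 and 236 after RT, 179.7, 187 and 170.1 after HT, and 179.6, 162 and 186 with HT + RT. In SAS it was 346, 339 and 397 CPM in controls, 353, 348 and 374 after RT, 294, 288 and 326 after HT, and 295, 297 and 325 with HT + RT. All heated libraries lay below all unheated ones in each line, by a small distance. JAG2 fell after HT by a log2 fold change of -0.31 ± 0.08 (SE, edgeR adjusted p = 0.032) in FaDu and -0.22 ± 0.07 (SE, edgeR adjusted p = 0.045) in SAS. The call in FaDu was lost without control replicate 2 or 3 or HT replicate 2 or 3 (edgeR adjusted p from 0.069 to 0.14). That in SAS was lost without control replicate 3 or HT replicate 1 or 2 (edgeR adjusted p from 0.11 to 0.16), and under a filter for a minimum of 10 counts in each library (0.066). JAG2 also fell in SAS after HT + RT against RT (-0.19 ± 0.05 (SE, edgeR adjusted p = 0.023)), a call lost without RT replicate 1 or 3 or HT + RT replicate 1 or 2 (edgeR adjusted p from 0.056 to 0.088). In FaDu it did not pass there (-0.29 ± 0.09 (SE, edgeR adjusted p = 0.06)), though it did with the replicate number as a block (-0.29, edgeR adjusted p = 0.017), without FaDu replicate 1 (-0.40, edgeR adjusted p = 5.8e-05) and with DESeq2 (-0.30, DESeq2 adjusted p = 0.029). Leaving out FaDu RT replicate 1 alone also made it pass (edgeR adjusted p = 0.008), as did library totals (0.022), no filter (0.0015) and 1 fit of all groups (0.036). Against control, JAG2 fell with HT + RT in FaDu (-0.34 ± 0.09 (SE, edgeR adjusted p = 0.024)), a call lost without control replicate 2 or 3 or HT + RT replicate 2 or 3 (edgeR adjusted p from 0.054 to 0.1). In SAS it did not pass there (-0.19 ± 0.07 (SE, edgeR adjusted p = 0.071)), although the libraries did not overlap. It did with the replicate number as a block (-0.19, edgeR adjusted p = 0.002), library totals (edgeR adjusted p = 0.0094), no filter (0.0053) and 1 fit of all groups (0.045). The difference between the lines for HT + RT against RT was -0.12 (95% CI -0.36 to 0.12, FaDu minus SAS).

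Of the receptors, NOTCH3 fell with heat in SAS spheroids. It was 112, 93.4 and 113 CPM in SAS controls, 107, 90.2 and 109 after RT, 78.1, 65.4 and 74.7 after HT, and 82.3, 64.1 and 80.4 with HT + RT. All 6 heated libraries lay below all 6 unheated ones, with replicate 2 lowest in each group. NOTCH3 fell by a log2 fold change of -0.52 ± 0.09 (SE, edgeR adjusted p = 0.0014) after HT and -0.40 ± 0.10 (SE, edgeR adjusted p = 0.013) after HT + RT against RT. In FaDu it was 124, 185 and 191 CPM in controls, 124, 169 and 199 after RT, 122, 191 and 169 after HT, and 128, 172 and 189 with HT + RT. The heated FaDu libraries lay inside the range of the unheated ones, except HT replicate 1 just below it. The log2 fold change after HT in FaDu was -0.03 (95% CI -0.47 to 0.41).

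NOTCH2 had a log2 fold change under 0 in all 4 heat comparisons and passed in 1. In SAS it was 135, 117 and 153 CPM in controls, 136, 135 and 170.4 after RT, 98.6, 118 and 117 after HT, and 106, 86.1 and 125 with HT + RT. The HT + RT libraries did not overlap those after RT, whereas those after HT overlapped the controls. NOTCH2 fell after HT + RT against RT by a log2 fold change of -0.43 ± 0.12 (SE, edgeR adjusted p = 0.021), and the call was lost without RT replicate 3 or HT + RT replicate 1 or 2 (edgeR adjusted p from 0.056 to 0.065). After HT in SAS it did not pass (-0.25 ± 0.10 (SE, edgeR adjusted p = 0.087)), but it did without SAS control replicate 2 (edgeR adjusted p = 0.024), with library totals (0.022) and without the filter on low counts (0.0041). HT + RT against control in SAS did not pass either (-0.30 ± 0.12 (SE, edgeR adjusted p = 0.1)), but it did with the replicate number as a block (edgeR adjusted p = 5.3e-05), with library totals (0.031), without the filter on low counts (9.6e-05), and without SAS control replicate 2 (edgeR adjusted p = 0.048) or HT + RT replicate 3 (0.023). In FaDu it was 202, 244 and 253 CPM in controls, 266, 237 and 246 after RT, 166, 221 and 229.8 after HT, and 188, 232 and 233 with HT + RT. Each HT library lay below the control of the same replicate number, although the groups overlapped. NOTCH2 did not pass after HT in FaDu (-0.16 ± 0.14 (SE, edgeR adjusted p = 0.49)), but it did with the replicate number as a block (-0.16, edgeR adjusted p = 0.019). The FaDu HT + RT libraries lay below those after RT, without overlap, but NOTCH2 did not pass there (-0.18 ± 0.09 (SE, edgeR adjusted p = 0.21)). The difference between the lines for HT + RT against RT was 0.23 (95% CI -0.15 to 0.61). NOTCH2NLA, the copy of NOTCH2 that was matched, had 9 to 50 counts per library, against 1593 to 7121 for NOTCH2.

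NOTCH1 had its highest SAS levels after HT + RT. It was 106, 102 and 130.1 CPM in SAS controls, 114, 105 and 113 after RT, 104, 111 and 109 after HT, and 140.4, 143 and 144 with HT + RT. The 3 HT + RT libraries lay above the 9 others, which overlapped among each other. NOTCH1 rose after HT + RT by a log2 fold change of 0.40 ± 0.05 (SE, edgeR adjusted p = 0.00023) against RT and 0.39 ± 0.08 (SE, edgeR adjusted p = 0.006) against control, whereas after HT it was -0.03 (95% CI -0.22 to 0.16). In FaDu it was 87.8, 145 and 136 CPM in controls, 111, 143 and 138 after RT, 89.1, 130.1 and 129.6 after HT, and 93.4, 129 and 134 with HT + RT. The 4 libraries of replicate 1 lay below the 8 others, and NOTCH1 passed in none of the 5 treatment comparisons in FaDu with edgeR, with or without them.

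LFNG, the Fringe enzyme, was altered in all 4 heat comparisons. It was 10.8, 16.5 and 17.5 CPM in FaDu controls, 10.8, 17.5 and 16.5 after RT, 4.68, 4.60 and 3.38 after HT, and 4.86, 5.25 and 3.86 with HT + RT. In SAS it was 44.5, 43.8 and 64.4 CPM in controls, 43.3, 44.8 and 56.9 after RT, 18.7, 21.5 and 19.8 after HT, and 18.9, 25.8 and 21.5 with HT + RT. All heated libraries lay below all unheated ones of the same line, and the heated SAS libraries were still above the FaDu controls. After HT, LFNG fell by a log2 fold change of -1.80 ± 0.21 (SE, edgeR adjusted p = 0.0008) in FaDu and -1.31 ± 0.14 (SE, edgeR adjusted p = 3.9e-05) in SAS. It fell by -1.69 ± 0.21 (SE, edgeR adjusted p = 0.0011) in FaDu and -1.08 ± 0.12 (SE, edgeR adjusted p = 6.6e-05) in SAS after HT + RT against RT. In this SAS comparison LFNG still passed with any library left out, but it fell short of the limit for an altered gene without RT replicate 3 (-0.95) or HT + RT replicate 1. The same held for HT + RT against control in SAS (-1.15) without control replicate 3 (-0.94). The difference between the lines, FaDu minus SAS, was -0.46 after HT (95% CI -1.04 to 0.12) and -0.63 ± 0.26 (SE, edgeR adjusted p = 0.18) in irradiated spheroids. The latter passed without FaDu replicate 1 (-0.87, edgeR adjusted p = 0.021), as it did without FaDu RT replicate 1 alone (edgeR adjusted p = 0.04).

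**Figure D3:**
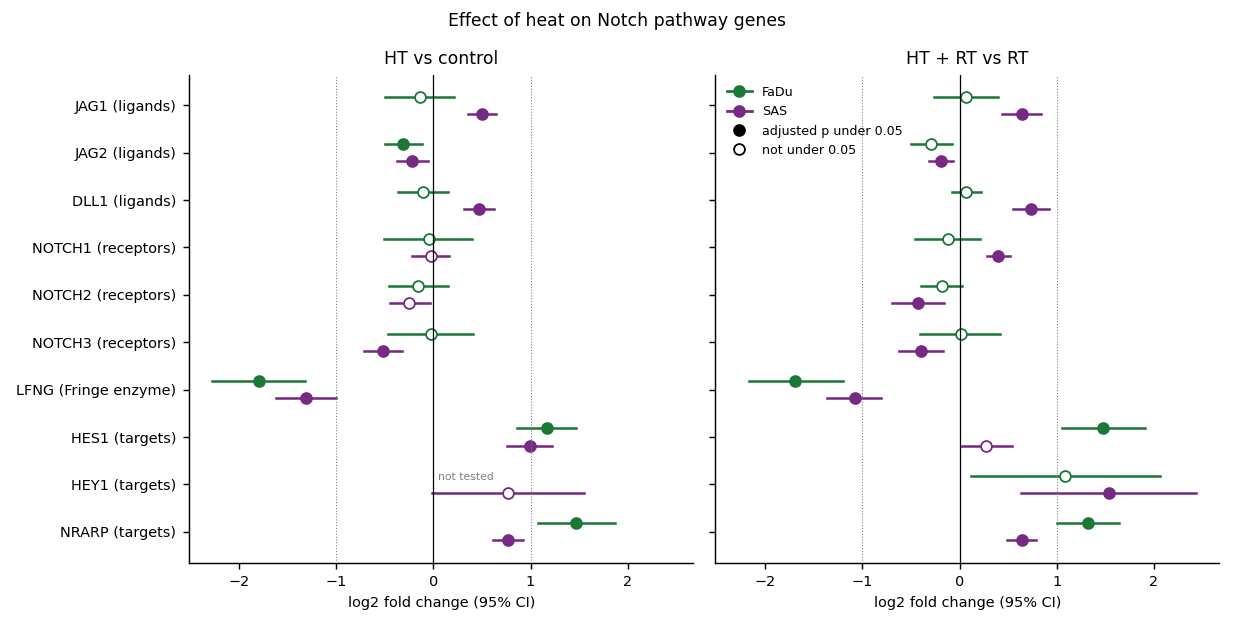
Log2 fold change with 95% CI of each gene for HT against control (left) and HT + RT against RT (right) in FaDu and SAS spheroids, with filled points for adjusted p under 0.05 and dotted lines at an absolute value of 1. LFNG lies between -1.80 and -1.08, NRARP lies between 0.64 and 1.47, and HES1 is lowest in irradiated SAS spheroids at 0.27.

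Among the targets, NRARP rose with heat in both lines. It was 94.2, 127 and 135 CPM in FaDu controls, 119, 133 and 140.0 after RT, 251, 358 and 363 after HT, and 252, 338 and 379 with HT + RT. In SAS it was 56.9, 53.4 and 49.5 CPM in controls, 60.9, 57.7 and 57.0 after RT, 93.1, 88.0 and 84.8 after HT, and 90.8, 93.8 and 81.9 with HT + RT. All heated libraries lay above all unheated ones of the same line. NRARP rose after HT by a log2 fold change of 1.47 ± 0.17 (SE, edgeR adjusted p = 0.0008) in FaDu and 0.77 ± 0.07 (SE, edgeR adjusted p = 1.2e-05) in SAS. With RT in both groups it rose by 1.32 ± 0.14 (SE, edgeR adjusted p = 0.00051) in FaDu and 0.64 ± 0.07 (SE, edgeR adjusted p = 3.7e-05) in SAS.

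HES1, a transcriptional repressor and direct Notch target, rose with heat in FaDu and, against control, in SAS. Its level was 52.3, 57.1 and 66.3 CPM in FaDu controls, 51.0, 46.9 and 49.7 after RT, 105, 146 and 136 after HT, and 92.5, 155 and 160.0 with HT + RT. In SAS it was 52.7, 52.2 and 63.9 CPM in controls, 50.3, 67.6 and 74.0 after RT, 124, 108 and 96.9 after HT, and 84.5, 71.2 and 70.2 with HT + RT. In FaDu all heated libraries lay above all unheated ones, whereas in SAS the HT + RT libraries lay below those after HT and overlapped those after RT. HES1 rose in FaDu by a log2 fold change of 1.17 ± 0.13 (SE, edgeR adjusted p = 0.0007) after HT and 1.48 ± 0.19 (SE, edgeR adjusted p = 0.0011) after HT + RT against RT. It rose after HT in SAS by 0.99 ± 0.11 (SE, edgeR adjusted p = 3.4e-05), just short of the limit for an altered gene, which it was over without control replicate 3, HT replicate 2 or HT replicate 3. It also rose in SAS after HT + RT against control (0.47 ± 0.10 (SE, edgeR adjusted p = 0.0048)), without overlap. In SAS it did not pass for HT + RT against RT (0.27 ± 0.12 (SE, edgeR adjusted p = 0.12)), but it did with the replicate number as a block (0.28, edgeR adjusted p = 0.048), without the filter on low counts (0.0071) and without SAS RT replicate 3 (edgeR adjusted p = 0.025).

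HEY1, another repressor of this family, had few counts. It had 5, 5 and 5 counts in FaDu controls, 11, 4 and 8 after RT, 17, 10 and 15 after HT, and 10, 11 and 30 with HT + RT. In SAS it had 12, 9 and 11 counts in controls, 3, 14 and 12 after RT, 14, 18 and 24 after HT, and 20, 31 and 30 with HT + RT. In CPM, all HT + RT libraries lay above all control and RT libraries of the same line. In FaDu the filter on low counts removed HEY1 from HT against control, RT against control and the comparison of controls, and without the filter its log2 fold change after HT was 1.64 ± 0.56 (SE, edgeR adjusted p = 0.035). After HT in SAS it did not pass (0.77, 95% CI -0.01 to 1.55, edgeR adjusted p = 0.15). HEY1 rose after HT + RT against control by 1.35 ± 0.31 (SE, edgeR adjusted p = 0.0074) in SAS. In FaDu the value was 1.68 ± 0.39 (SE, edgeR adjusted p = 0.017), but there HEY1 was tested only because the HT + RT libraries, where it is high, met the filter. The call in FaDu was lost without control replicate 2 or 3 or HT + RT replicate 3 (edgeR adjusted p from 0.061 to 0.11) and with DESeq2 (DESeq2 adjusted p = 0.09). Against RT, HEY1 rose in SAS (1.54 ± 0.41 (SE, edgeR adjusted p = 0.016)), a call lost without HT + RT replicate 2 (edgeR adjusted p = 0.053). The same comparison in FaDu did not pass (1.09 ± 0.43 (SE, edgeR adjusted p = 0.11)), but it did without FaDu replicate 1 (1.67, edgeR adjusted p = 0.018), and the difference between the lines was -0.47 (95% CI -1.87 to 0.93). HT + RT against HT gave -0.01 in FaDu (95% CI -0.88 to 0.86) and 0.58 in SAS (95% CI -0.08 to 1.24), and neither passed.

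RT was compared with control and, among heated spheroids, HT + RT with HT. After RT, 0 of 9 tested genes in FaDu and 0 of 10 in SAS passed with edgeR, where 0.0322% and 0.0749% of all genes did. Blocking on the replicate number gave 1 and 0, against 2.01% and 1.96% of all genes. At an unadjusted p under 0.05 there were 1 and 0, against 5.09% and 5.68% of all genes, and DESeq2 gave 0 and 0, against 0.406% and 0.296%. The median log2 fold change of the tested genes was -0.02 in FaDu and -0.04 in SAS, and that of all genes was -0.0016 and -0.0037. The 1 gene was HES1 in FaDu, at -0.25 ± 0.09 (SE, edgeR adjusted p = 0.83), with all 3 RT libraries below the controls. HES1 passed there with the replicate number as a block (-0.25, edgeR adjusted p = 0.038) and without FaDu replicate 1 (-0.35, edgeR adjusted p = 0.0054). For HT + RT against HT, 0 of 10 genes passed in each line with edgeR, where 0% of all 16145 genes in FaDu and 0% of all 15341 genes in SAS did. With the block it was 0 and 2, against 0.954% (154 genes) and 0.906% (139 genes). At an unadjusted p under 0.05 there were 0 in FaDu and 2 in SAS, NOTCH1 and HES1, against 2.24% and 4.39% of all genes, and DESeq2 gave 0 and 2, against 0.0165% and 0.178%. The medians were 0.04 and 0.05, beside 0.0028 and -0.0016 over all genes. In SAS, NOTCH1 was higher after HT + RT than after HT in all 3 libraries, at 0.41 ± 0.05 (SE, edgeR adjusted p = 0.051). HES1 was lower in all 3, at -0.53 ± 0.10 (SE, edgeR adjusted p = 0.12). Both passed with the replicate number as a block (edgeR adjusted p = 7.4e-05 for NOTCH1 and 5.3e-05 for HES1) and with DESeq2 (DESeq2 adjusted p = 9.4e-06 and 0.00035).

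**Figure D4:**
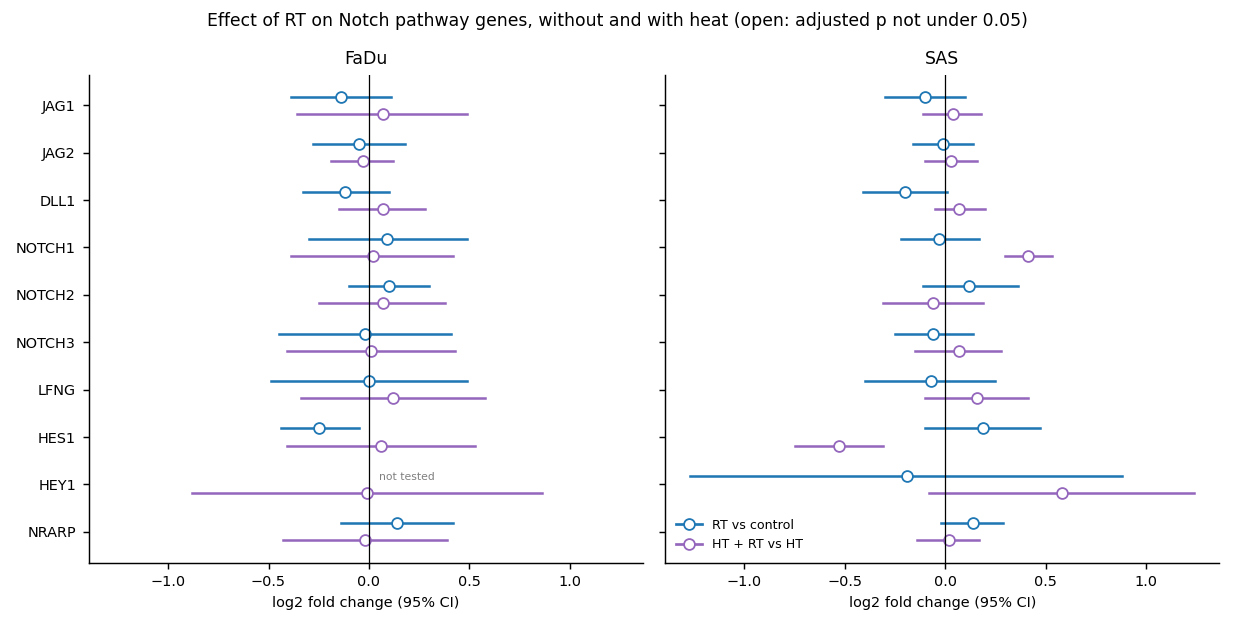
Log2 fold change with 95% CI of each gene for RT against control and for HT + RT against HT in FaDu (left) and SAS (right) spheroids. No gene passed in the edgeR fits shown, which had no replicate block. With the replicate number as a block, HES1 passed in FaDu after RT, and NOTCH1 and HES1 passed in heated SAS spheroids. The intervals of NOTCH1 (0.41) and HES1 (-0.53) in heated SAS spheroids, and of HES1 (-0.25) in FaDu after RT, lie off 0.

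Whether the effect of HT differed with RT was tested as an interaction within each line, a test chosen after the data had been seen. With edgeR 0 of 10 genes passed in each line, where 0% of all 16793 genes in FaDu and 0.00632% of all 15833 genes in SAS did. At an unadjusted p under 0.05 there were 0 in FaDu and 3 in SAS (DLL1, NOTCH1 and HES1), against 3.22% and 3.97% of all genes, and DESeq2 gave 0 and 0, against 0.0103% and 0.0719%. The medians were 0.02 and 0.13, beside -0.0041 and -0.0029 over all genes. In SAS the interaction was 0.43 ± 0.11 (SE, edgeR adjusted p = 0.75) for NOTCH1 and -0.72 ± 0.18 (SE, edgeR adjusted p = 0.82) for HES1. Both, and CHAC1, passed without the filter on low counts (edgeR adjusted p = 0.011, 4.2e-08 and 0.0014). In FaDu it was 0.31 ± 0.25 (SE, edgeR adjusted p = 1) for HES1, which passed without FaDu replicate 1 (0.50, edgeR adjusted p = 0.01).

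The difference between the lines in the effect of HT was tested as an interaction, FaDu minus SAS. For HT against control, 2 of 10 genes passed, where 5.55% of all 17219 genes did. DLL1 was lower in FaDu (-0.55 ± 0.14 (SE, edgeR adjusted p = 0.033)) and NRARP was higher (0.74 ± 0.20 (SE, edgeR adjusted p = 0.044)). For HT + RT against RT, in which the lines also differed in dose, 3 of 10 passed, where 7.59% of all 17376 genes did. DLL1 was again lower (-0.69 ± 0.11 (SE, edgeR adjusted p = 0.0015)). HES1 (1.19 ± 0.25 (SE, edgeR adjusted p = 0.0075)) and NRARP (0.66 ± 0.16 (SE, edgeR adjusted p = 0.023)) were higher. The medians of the 10 genes were 0.06 and -0.30, beside 0.029 and -0.024 over all genes. JAG1 did not pass in either, at -0.61 ± 0.18 (SE, edgeR adjusted p = 0.057) and -0.59 ± 0.18 (SE, edgeR adjusted p = 0.069), nor did NOTCH3 after HT (0.52 ± 0.23 (SE, edgeR adjusted p = 0.26)) or NOTCH1 in irradiated spheroids (-0.55 ± 0.16 (SE, edgeR adjusted p = 0.058)). Without FaDu replicate 1, JAG1 passed in both (-0.57, edgeR adjusted p = 0.0044, and -0.48, edgeR adjusted p = 0.04). JAG1 also passed after HT without FaDu control replicate 1, HT replicate 1 or HT replicate 2 alone (edgeR adjusted p = 0.018, 0.034 and 0.013), and in irradiated spheroids without SAS RT replicate 3 or FaDu HT + RT replicate 3 (0.034 and 0.027). Without FaDu replicate 1, so did NOTCH3 after HT (0.51, edgeR adjusted p = 0.017) and NOTCH1 in irradiated spheroids (-0.52, edgeR adjusted p = 0.00061). NOTCH1 passed there also without FaDu RT replicate 1 or FaDu HT + RT replicate 3 alone (edgeR adjusted p = 0.02 and 0.039). JAG1 after HT also passed with DESeq2 (DESeq2 adjusted p = 0.018), RLE size factors (edgeR adjusted p = 0.048) and 1 fit of all groups (0.037), and NOTCH1 in irradiated spheroids with DESeq2 (DESeq2 adjusted p = 0.041). Without the filter on low counts, JAG1 and NOTCH3 passed in both interactions, and NOTCH1 and LFNG in irradiated spheroids (edgeR adjusted p from 7.7e-05 to 0.023). With the replicate number as a block, JAG1 and NOTCH3 passed in both, and NOTCH1 in irradiated spheroids (edgeR adjusted p from 9.5e-05 to 0.002). The correlation of equal replicate numbers was not over 0.1 for all SAS pairs in these fits. The call on NRARP after HT was lost on leaving out any library other than FaDu control replicate 3 or FaDu HT replicate 1 (edgeR adjusted p from 0.057 to 0.12), with library totals (0.071), and under a filter for a minimum of 10 counts in each library (0.054). In irradiated spheroids it was lost without SAS RT replicate 1 or 2, SAS HT + RT replicate 3, or FaDu HT + RT replicate 2 or 3 (edgeR adjusted p from 0.051 to 0.069). The call on DLL1 after HT was lost without SAS control replicate 2, SAS HT replicate 2, FaDu control replicate 2 or 3, or FaDu HT replicate 2 (edgeR adjusted p from 0.051 to 0.1).

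Another 56 genes of the pathway were counted by direction. In FaDu after HT, 6 of 51 tested genes were higher, 5 lower and 2 altered, with a median log2 fold change of -0.04, against 7.95%, 9.69% and 4.97% of all genes and a median of 0.0061. In SAS after HT, 9 of 48 were higher, 4 lower and 1 altered, with a median of 0.01, against 12.2%, 11.4% and 6.03% of all genes and a median of 0.0025. With RT in both groups, 5 of 52 were higher, 5 lower and 2 altered in FaDu, against 9.37%, 9.9% and 5.39% of all genes. In SAS, 8 of 51 were higher, 7 lower and 3 altered, against 14.1%, 13.8% and 6.6%. DLL4 met the filter on low counts only through the heated libraries in FaDu after HT and in both lines for HT + RT against RT, so that it had to differ. Without DLL4, 5 of 50 were higher and 1 altered in FaDu after HT, and for HT + RT against RT 4 of 51 were higher and 1 altered in FaDu, and 7 of 50 and 2 in SAS. With the replicate number as a block, 8 of 51 were higher and 12 lower in FaDu after HT, against 15.6% and 17.1% of all genes. Between HT + RT and RT the block gave 7 higher and 9 lower of 52 in FaDu, against 15.2% and 15.8%, and 10 and 10 of 51 in SAS, against 19% and 19.9%. After RT, 0 of all 51 tested pathway genes in FaDu and 0 of 49 in SAS passed with edgeR, against 0.0322% and 0.0749% of all genes. An unadjusted p under 0.05 was found for 2 and 1 of them, against 5.09% and 5.68% of all genes, DESeq2 gave 0 and 0, against 0.406% and 0.296%, and the block gave 1 and 0, against 2.01% and 1.96%. With edgeR, 0 of 52 passed in each line for HT + RT against HT, against 0% and 0% of all genes. There 3 and 2 had an unadjusted p under 0.05, against 2.24% and 4.39% of all genes, DESeq2 gave CHAC1 alone in each line, against 0.0165% and 0.178%, and the block gave 3 and 2, against 0.954% and 0.906%.

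**Figure D5:**
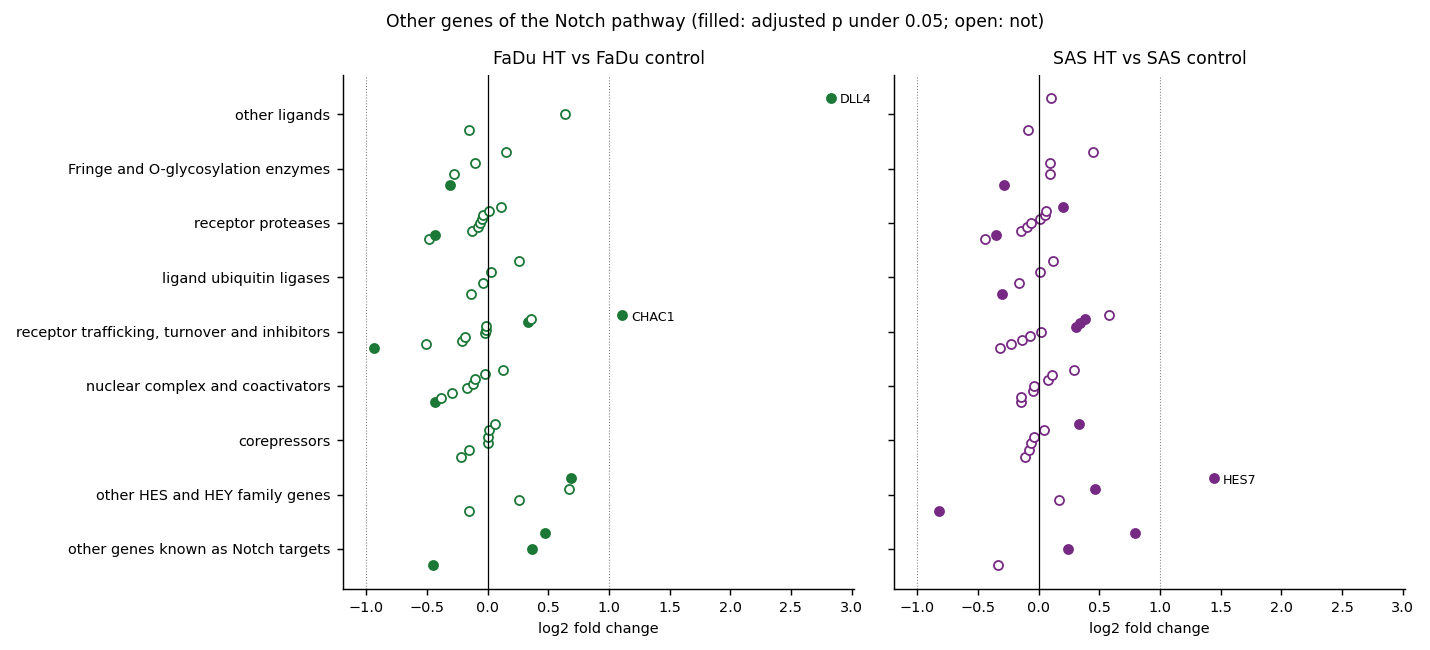
Log2 fold change after HT against control of the other pathway genes that were tested, by role, in FaDu (left) and SAS (right) spheroids, with filled points for adjusted p under 0.05. Most points are open and near 0, and DLL4 (2.83) and CHAC1 (1.11) in FaDu and HES7 (1.44) in SAS lie beyond 1.

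DLL4, a Delta-like ligand, had few counts in unheated spheroids. It had 1, 8 and 2 counts in FaDu controls, 3, 3 and 8 after RT, 27, 19 and 24 after HT, and 23, 16 and 47 with HT + RT. In SAS it had 1, 1 and 2 counts in controls, 4, 3 and 0 after RT, 8, 16 and 13 after HT, and 11, 22 and 16 with HT + RT. In CPM, all heated libraries lay above all unheated ones of the same line. The filter on low counts was met by the heated libraries alone in each of the comparisons below, so that DLL4 had to differ there, and its fold changes rest on few counts. In FaDu the log2 fold change was 2.83 ± 0.57 (SE, edgeR adjusted p = 0.011) after HT, from 2.44 to 4.1 with a library left out, a call lost without control replicate 3 (edgeR adjusted p = 0.059), and 2.57 ± 0.38 (SE, edgeR adjusted p = 0.0025) after HT + RT against RT. In SAS it was 2.80 ± 0.60 (SE, edgeR adjusted p = 0.0048) after HT + RT against RT (2.25 to 3.42 with a library left out), and the filter on low counts removed it from HT against control.

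CHAC1, known as an inhibitor of Notch receptor maturation, had 63, 55 and 59 counts in FaDu controls, 91, 54 and 74 after RT, 96, 113 and 127 after HT, and 176, 192 and 381 with HT + RT. In SAS it had 66, 82 and 25 counts in controls, 54, 74 and 32 after RT, 57, 123 and 86 after HT, and 134, 260 and 209 with HT + RT. In CPM, the HT + RT libraries lay above all others of the same line. CHAC1 rose after HT + RT against RT by 1.75 ± 0.21 (SE, edgeR adjusted p = 0.00086) in FaDu and 1.96 ± 0.24 (SE, edgeR adjusted p = 0.00012) in SAS. After HT it rose in FaDu (1.11 ± 0.18 (SE, edgeR adjusted p = 0.004)) and did not pass in SAS (0.58 ± 0.35 (SE, edgeR adjusted p = 0.26)), with a difference between the lines of 0.56 (95% CI -0.40 to 1.53). HT + RT against HT did not pass in FaDu (0.91 ± 0.14 (SE, edgeR adjusted p = 0.87)) or SAS (1.23 ± 0.22 (SE, edgeR adjusted p = 0.11)), but it did with DESeq2 (DESeq2 adjusted p = 0.02 and 0.00035) and with the replicate number as a block (edgeR adjusted p = 6.7e-05 and 0.00019). It also passed in FaDu without FaDu replicate 1 (0.94, edgeR adjusted p = 0.0073), and in both lines without the filter on low counts (edgeR adjusted p = 0.00018 and 8.1e-10).

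HES7, a repressor of the same family as HES1, had 23, 22 and 9 counts in SAS controls, 23, 10 and 15 after RT, 65, 38 and 46 after HT, and 47, 52 and 53 with HT + RT. In CPM all heated SAS libraries lay above all unheated ones, and no FaDu library had over 4 counts. HES7 rose in SAS by 1.44 ± 0.35 (SE, edgeR adjusted p = 0.012) after HT, a call lost without HT replicate 1 (edgeR adjusted p = 0.052), and 1.72 ± 0.31 (SE, edgeR adjusted p = 0.0017) after HT + RT against RT. HES1, HEY1, NRARP, HES7, DLL4 and CHAC1 stand in a Notch term that the study drew from these same libraries, so that their directions are not independent evidence.

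Between the controls, 24 of 50 tested pathway genes were higher in FaDu, 12 were lower and 17 were altered, against 38.6%, 36.4% and 38.1% of all genes. Of these, 3 altered genes (DTX1, MAML3 and HEYL) met the filter on low counts through the FaDu libraries alone, and of the other 47 genes 21 were higher, 12 lower and 14 altered. The median log2 fold change was 0.27, beside 0.029 over all genes. Among the altered ones were the coactivator gene MAML2 (-4.44), the ligand ubiquitin ligase genes NEURL1 (-3.89) and NEURL1B (2.29), and the Fringe gene MFNG (2.28).

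The genes whose patterns were most like those of the altered genes of the list were sought by Pearson correlation over the 24 libraries, among 12951 genes, of log2 CPM less the mean of the controls of the same line. The libraries share lines and treatment groups, and the correlations are given as a description. Those nearest to LFNG were SEL1L (0.963), DHX35 (0.963) and MIEF2 (0.956). Those nearest to HES1 were TSPYL4 (0.933), ZNF550 (0.907) and TIGD3 (0.906). For HEY1 they were MALINC1 (0.889), DLX2 (0.867) and CITED2 (0.860). For NRARP they were CCDC71L (0.977), C11orf96 (0.974) and NR4A2 (0.971).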

How the data were processed

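Counts per gene from 24 libraries were used as deposited, as whole numbers of raw counts for 57500 genes made by the authors. The authors tested them with DESeq2, and the aligner, the counting program and the strand setting are not given in the sources used here. The notes name mm9, a mouse build, although the identifiers are human Ensembl ones. Libraries were grouped by the labels. The members and lists were chosen with earlier results of these data known.

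Each of 15 comparisons was fitted to the libraries of its groups with edgeR 4.0.16 in R 4.3.3 (TMM, filterByExpr with a minimum count of 10, quasi-likelihood test, Benjamini-Hochberg adjustment over all genes tested). The steps were tested on simulated data. All 10 members were named, and of the other 56 pathway genes those altered in a treatment comparison or between the controls could be named. Markers of squamous epithelial, fibroblast, endothelial and leukocyte cells were summed. Nearest patterns used log2 CPM with a pseudocount of 0.5 over genes with a mean of at least 1.

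The labels give replicate numbers, and the study describes independent experiments. Whether equal numbers pair was checked by the correlation of residuals between groups, and a comparison was taken as paired where the lowest was over 0.1. The replicate number was then tried as a block. Other alternatives were DESeq2 1.42.0, RLE size factors, library totals, no filter, a filter for a minimum of 10 counts in each library, 1 fit of all groups, and each library left out. The fits without FaDu replicate 1 and the interactions of HT and RT were chosen after seeing the data. Sequencing depth limits the precision of genes with few counts, such as HEY1.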

Additional observations from a re-analysis of the deposited data

Results flagged for a closer look

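With edgeR the test of a difference between the lines in the effect of HT passed for DLL1 and NRARP, with an interaction, FaDu minus SAS, of -0.55 for DLL1 and 0.74 for NRARP on the log2 scale. The call was lost in 5 of 12 fits with a library left out for DLL1 and in 10 of 12 for NRARP, and for NRARP also with library totals and with a minimum of 10 counts in each library. In irradiated spheroids, where the dose also differed between the lines, it passed for DLL1 (-0.69), HES1 (1.19) and NRARP (0.66), and the call on NRARP was lost in 5 of 12 such fits. Each was marked because the test of the difference between the lines passed with edgeR.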

How the results depend on the processing

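No log2 fold change of the 10 genes turned its sign while past the threshold under any alternative run. Of 147 results of these genes per alternative, 138 kept their direction and side of the threshold with DESeq2, 145 with RLE size factors, 143 with all groups in 1 fit, 136 with library totals, 129 without a filter and 131 with the replicate block, as did 133 of 137 with a minimum of 10 counts in each library, 65 of 87 without FaDu replicate 1 and 959 of 1122 with a library left out. The count of altered genes after HT in SAS was 1, and was 2 with a minimum of 10 counts in each library, 7 by adjusted p alone and 1 to 2 with a library left out. After HT + RT against RT in SAS it was 2, and was 1 with this minimum, 9 by adjusted p alone and 1 to 2 with a library left out. After HT + RT against control in SAS it was 2, and was 1, 8 and 1 to 2 under the same alternatives. By adjusted p alone it was 7 in place of 2 between the controls, 2 in place of 0 for the interaction of line and HT, and 3 in place of 1 for that in irradiated spheroids. Of all genes, 23.6%, 27.8% and 25.1% passed by adjusted p alone in the SAS comparisons above, in the same order. The share was 75% between the controls, 5.55% for the interaction of line and HT and 7.59% for that in irradiated spheroids. With the replicate block the count of altered genes after HT in FaDu was 3, as without it. The block was also run where the lowest correlation between equal replicate numbers was not over 0.1. In both interactions of line and HT, all FaDu pairs were over this limit and some SAS pairs were not. The block made NOTCH2 pass after HT in SAS (-0.24, edgeR adjusted p = 0.022) and NOTCH1 in the interaction of HT and RT in SAS (0.43, edgeR adjusted p = 0.042). It made JAG1 (-0.62, edgeR adjusted p = 0.00023) and NOTCH3 (0.51, 0.00016) pass in the interaction of line and HT. In that of irradiated spheroids it did so for JAG1 (-0.60, edgeR adjusted p = 0.002), NOTCH1 (-0.56, 9.5e-05) and NOTCH3 (0.39, 0.0011). The cause was not tested. Levels with library totals stayed within 1 SD of the replicates for 60 of 80. With 3 libraries per group and few counts for HEY1, DLL4 and HES7, a p that missed the threshold does not show that levels did not differ.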
